A study of Mus musculus with 12 samples.

Results

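Ribosomes are built in the nucleolus, and the transcripts described here come from 48 genes named for that assembly line in conventional type 1 dendritic cells (cDC1s) from mouse tumors. They were all rows of an expression table of 11264 genes whose symbol begins with *Nop*, *Nol*, *Utp*, *Rrp* or *Exosc* and a digit, or with *Polr1* and a letter, with none left out for a pseudogene suffix. The *Nop* and *Nol* families gave 8 members each, *Utp* gave 10, *Rrp* gave 8, *Exosc* gave 9 and *Polr1* gave 5. The name rule uses no measured value. All 48 members passed the filter on low values, none had a count of 0 in any library, and 3 had a mean under 10 TMM-scaled counts per M (CPM).

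RNA polymerase I copies the ribosomal DNA into a long precursor, which small nucleolar ribonucleoproteins (snoRNPs) modify and a large processome folds and cuts into the RNA of the small subunit. Further factors build the large subunit around the remaining precursor, and the RNA exosome, a ring of proteins with attached nucleases, trims precursor ends and degrades the cut spacers. The pathway is best known from yeast and is costly for the cell. Its output is generally high in dividing cells, and Myc proteins are classical activators of its genes. By role, the members were 5 polymerase I subunits, 3 snoRNP proteins, 20 factors of small subunit assembly, 10 factors of large subunit assembly and 9 exosome subunits. No gene with the symbol *Exosc6* was found among the 11264. The remaining member, *Nol4l*, carries the name of the nucleolus without a known place in the pathway.

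The cDC1s, dendritic cells that present captured antigen to CD8+ T cells, were sorted on day 13 from B16F10 tumors, a transplanted melanoma line, as CD24+ CD103+ CD11b- cells without Ly6C or F4/80. Mice were 7 to 10 weeks old and had been given, hydrodynamically and 1 day ahead of the tumor, an empty plasmid (control) or a plasmid for Flt3L (FL), a cytokine that drives dendritic cell development. They were either WT or *Clec9a* gfp/gfp, a knockin in which GFP replaces DNGR-1, the receptor for dead cells encoded by *Clec9a*, in every cell of the animal. The 4 groups, WT control, *Clec9a* gfp/gfp control, WT FL and *Clec9a* gfp/gfp FL, had 3 libraries each, and cells from 2 to 3 mice with bilateral tumors were pooled for each.

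*Clec9a* was at 288 to 388 CPM in the 6 WT libraries and at 0.269 to 10.9 CPM in the 6 *Clec9a* gfp/gfp libraries, of which *Clec9a* gfp/gfp control 3 was the highest. The effective library size was 3.06 M counts in that same library and 14.4 to 25.9 M in the other 11. All 10 cDC1 markers looked for were measured, with a summed level of 10440 to 12840 CPM. Of 13 macrophage and monocyte markers 12 were measured, with sums of 452 to 1397 CPM and the highest sums in *Clec9a* gfp/gfp FL 3 (1397 CPM) and WT control 3 (1166 CPM). WT control 3 also stood apart in how its values followed transcript length. The correlation across genes between its deviation from the 12-library mean and log2 transcript length was −0.504, against −0.194 to 0.330 in the other 11 libraries.

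Most members were lower with FL than with control. Their summed level was 2462 ± 246 CPM in WT control and 2046 ± 120 CPM in WT FL, and 2355 ± 84.1 CPM in *Clec9a* gfp/gfp control and 1933 ± 137 CPM in *Clec9a* gfp/gfp FL (SD, n = 3 in each). With control the 6 sums were 2290, 2352 and 2744 CPM in WT and 2258, 2400 and 2408 CPM in *Clec9a* gfp/gfp libraries. With FL they were 2006, 1950 and 2181 CPM in WT and 1976, 2043 and 1780 CPM in *Clec9a* gfp/gfp libraries. Every FL sum was thus below every control sum. Per kilobase of transcript, the mean level in WT control ranged from 0.549 CPM for *Utp14b* to 126 CPM for *Polr1d*. In bulk RNA of this kind, fewer cells with a transcript and fewer transcripts per cell cannot be told apart.

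**Figure D1:**
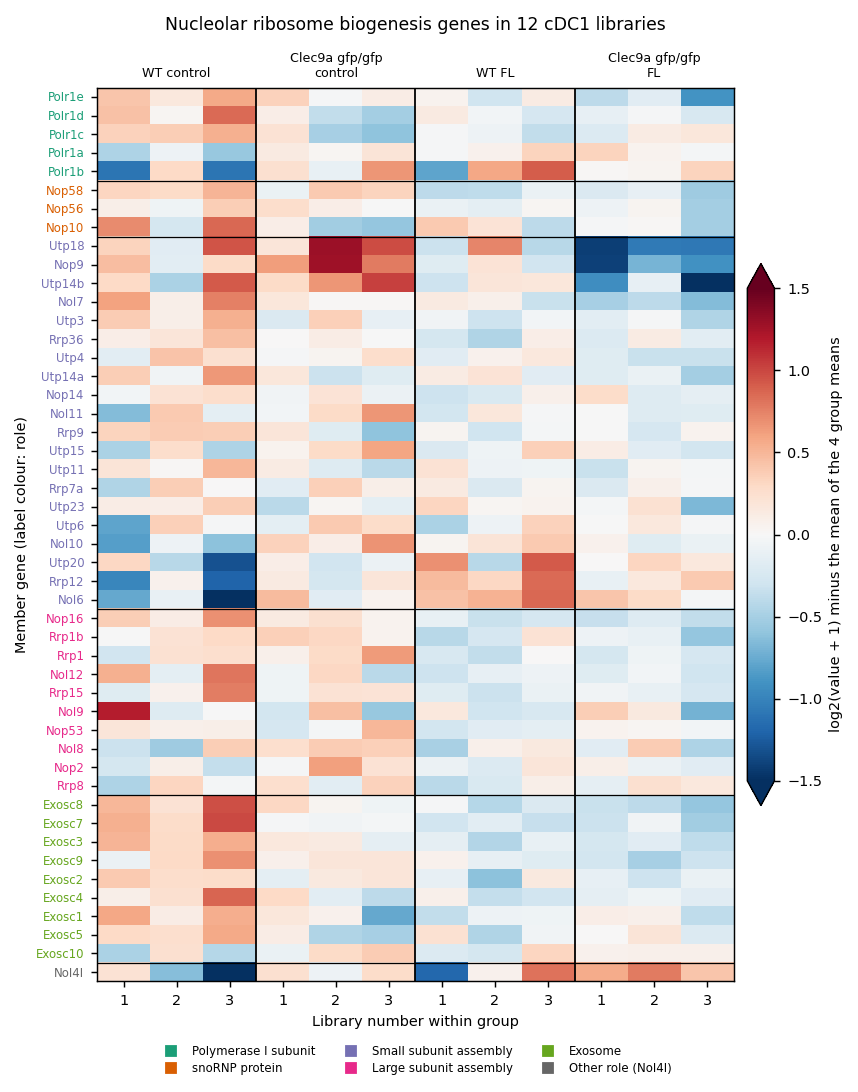
Deviation of each member gene (rows, grouped by role) from the mean of the 4 group means, on the log2(value + 1) scale, in each of the 12 libraries (columns) (red higher, blue lower, saturated at the ends of the color scale). The FL libraries on the right are mostly blue, *Utp18*, *Nop9* and *Utp14b* are darkest in the 3 *Clec9a* gfp/gfp FL libraries, and WT control 3 holds strong reds and strong blues side by side.

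To ask what FL did to these genes over both genotypes, the average of the FL effects in WT and *Clec9a* gfp/gfp cDC1s was tested with limma, and a gene was called at a Benjamini-Hochberg adjusted p under 0.1 over all genes tested. Of the 48 members, 12 (25%) fell and 2 rose. Among all 11255 genes tested, 7.85% were called lower and 9.6% higher. The log2 fold change was negative for 40 members, and for 50.2% of all genes. The median was −0.19 for the members and 0.00 for all genes. All 12 that fell were lower by sign in each genotype, but they were chosen on the average of both effects, which favors that outcome. Called or not, 25 of 48 members (52.1%) were lower in both genotypes, against 31.1% of all genes. Without WT control 1 and WT control 3 together, 1 member (*Nop9*) was called lower and 0 higher, with a median of −0.22 over the members. Of all genes, 0.524% were then called lower.

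**Figure D2:**
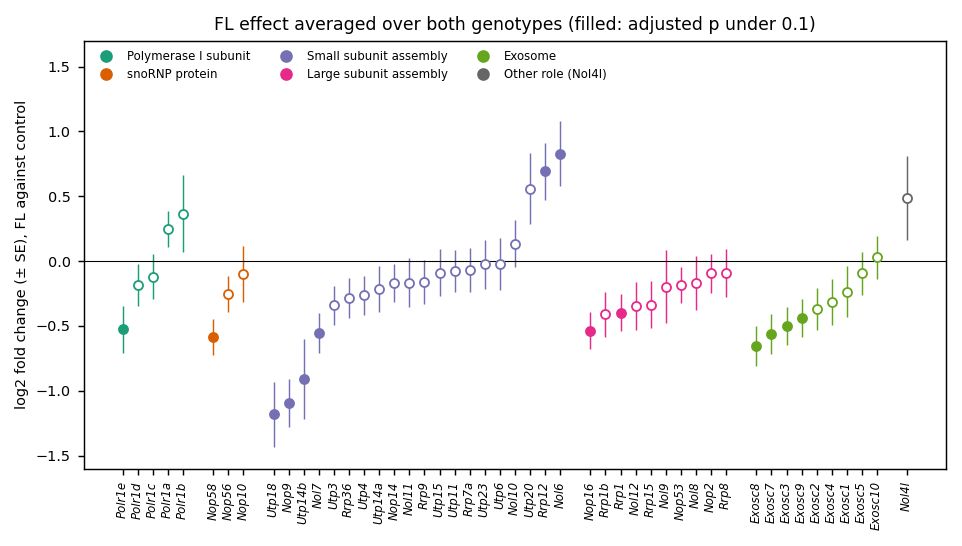
Log2 fold change of each member gene, FL against control averaged over both genotypes, with its standard error, ordered within each role; filled points had an adjusted p under 0.1 by limma. The 12 filled points below 0 are spread over every role of the pathway, and the 2 filled points above 0, *Rrp12* and *Nol6*, belong to small subunit assembly.

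Over both genotypes, small subunit assembly, the role with the most members, held the largest changes and the only members that rose. Of the 20, 4 fell over both genotypes (*Utp18*, *Nop9*, *Utp14b* and *Nol7*), 2 rose and 14 did not pass the test. Of all genes, 7.85% were called lower and 9.6% higher. The median log2 fold change of the role was −0.16. It was −0.12 for polymerase I subunits, −0.25 for snoRNP proteins, −0.27 for large subunit assembly and −0.37 for the exosome. *Nop9* encodes an RNA-binding protein that in yeast is needed to process the small subunit precursor. It was at 50.5, 32.5 and 44.7 CPM in WT control 1, 2 and 3 and at 31.8, 42.0 and 29.5 CPM in WT FL libraries. The *Clec9a* gfp/gfp libraries had 56.5, 89.3 and 63.2 CPM with control and 13.1, 22.1 and 18.8 CPM with FL. The 3 *Clec9a* gfp/gfp FL libraries were therefore below all 9 others, whereas the WT groups overlapped. Under FL, *Nop9* fell 3.72-fold in *Clec9a* gfp/gfp cDC1s (log2 fold change −1.90, SE 0.26, adjusted p = 0.00664). The WT log2 fold change was −0.29 (SE 0.26, adjusted p = 0.525).

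*Utp18* encodes a WD-repeat protein of the processome that binds the nascent precursor. Its level was 35.9, 25.1 and 55.3 CPM in WT control and 22.4, 47.9 and 20.9 CPM in WT FL libraries. The *Clec9a* gfp/gfp libraries had 32.4, 70.6 and 56.6 CPM with control and 10.03, 13.1 and 13.0 CPM with FL. Again the 3 *Clec9a* gfp/gfp FL libraries lay below all others, and the WT groups overlapped. The fall in *Clec9a* gfp/gfp cDC1s was 3.99-fold (log2 fold change −1.99, SE 0.35, adjusted p = 0.0124), and the WT log2 fold change was −0.37 (SE 0.35, adjusted p = 0.555). *Nop9* and *Utp18* were called in *Clec9a* gfp/gfp cDC1s under all 24 alternatives tried, with adjusted p of at most 0.0514 and 0.0759.

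The bases just before the transcription start of these genes are shown because they were the members with the largest called changes. They were read from RefSeq on GRCm38.p6 on the coding strand, 5′ to 3′, and capitals mark the E-box CACGTG, the sequence that Myc and Max proteins bind.
Nop9, chr14:55745593-55745692, plus strand: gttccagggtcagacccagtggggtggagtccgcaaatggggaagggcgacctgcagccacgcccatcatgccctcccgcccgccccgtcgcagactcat
Utp18, chr11:93885767-93885866, minus strand: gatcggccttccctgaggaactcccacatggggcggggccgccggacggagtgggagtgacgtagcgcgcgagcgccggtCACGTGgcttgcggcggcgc
The window of *Utp18* holds an E-box and that of *Nop9* does not. Over the 250 bases before the start, searched for CACGTG (which reads the same on the other strand, with no second motif), 6 of the 40 members with a RefSeq promoter entry held it (15%), namely *Exosc5*, *Nol11*, *Nop2*, *Rrp7a*, *Utp14b* and *Utp18*. Of all genes in the expression table with an entry, 10.1% held it. A match to these letters is a description of the sequence and not evidence of binding.

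*Nop9* lies on chromosome 14 from 55745693 to 55755500 (GENCODE M21 on GRCm38, plus strand, 10 exons), and *Cideb* on the other strand covers 1136 of its exon bases. The libraries carried no strand mark, so reads from that stretch cannot be told apart. *Cideb* was not found among the 11264 genes, and its part in the *Nop9* value was not tested. *Utp18* lies on chromosome 11 from 93859243 to 93885766 (minus strand, 14 exons) and shares no exon bases with another annotated gene. Over all members, 17 overlapped an exon of another gene, in 7 cases a gene of the same table.

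*Utp14b*, a copied gene known in mice for its need in sperm formation, also fell in *Clec9a* gfp/gfp cDC1s with FL, from 3.83, 5.25 and 7.02 CPM to 1.07, 2.63 and 0.215 CPM. These groups did not overlap (log2 fold change −1.58, SE 0.44, adjusted p = 0.0627), but the lowest of these values stood on 4 counts, and limma-voom on whole counts did not call the gene (adjusted p = 0.118). In WT cDC1s it was at 3.88, 1.83 and 6.47 CPM with control and at 2.18, 3.49 and 3.43 CPM with FL, and these groups overlapped. The value of *Utp14b* is uncertain because it is a near copy of *Utp14a* and shares 244 exon bases with *Acsl3* on the same strand, and *Acsl3* itself fell in *Clec9a* gfp/gfp cDC1s (log2 fold change −1.50, adjusted p = 0.0193). *Utp14a* did not pass the test, at log2 fold changes of −0.15 with *Clec9a* gfp/gfp and −0.27 with WT cells. The call of *Utp14b* was lost on leaving out *Clec9a* gfp/gfp control 2 or 3, or FL 1 or 3 of the same genotype, with an adjusted p of up to 0.315. Over both genotypes its fall (log2 fold change −0.91, adjusted p = 0.0717) was lost without these 4 libraries in turn, and without WT control 3, WT FL 1 or WT FL 3, with an adjusted p of up to 0.182.

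*Nol7*, a nucleolar protein of the small subunit processome in human cells, was lower with FL by a like amount in each genotype (log2 fold changes of −0.58 with *Clec9a* gfp/gfp and −0.53 with WT cells). It was at 74.7, 52.1 and 83.3 CPM in WT control, 53.9, 51.4 and 38.5 CPM in WT FL, 55.1, 49.3 and 49.4 CPM in *Clec9a* gfp/gfp control and 34.3, 37.0 and 30.9 CPM in *Clec9a* gfp/gfp FL libraries. The groups overlapped in WT and did not in *Clec9a* gfp/gfp cDC1s. Over both genotypes *Nol7* fell 1.47-fold (log2 fold change −0.55, SE 0.16, adjusted p = 0.0342), while neither genotype alone passed the test.

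*Nol6* and *Rrp12* went the other way. *Nol6* encodes the counterpart of yeast Utp22, a core part of the processome, and *Rrp12* a protein that in yeast helps to export the subunits from the nucleus. *Nol6* was at 19.8, 31.9 and 7.99 CPM in WT control and at 47.1, 49.9 and 63.1 CPM in WT FL libraries, with no overlap (log2 fold change 1.56, SE 0.35, adjusted p = 0.0473). *Rrp12* was at 9.41, 20.5 and 7.93 CPM in WT control and at 27.5, 24.5 and 36.2 CPM in WT FL libraries, also without overlap (log2 fold change 1.25, SE 0.31, adjusted p = 0.0516). For both genes the lowest library was WT control 3. With *Clec9a* gfp/gfp cells *Nol6* was at 48.1, 30.6 and 35.7 CPM with control and at 46.1, 42.1 and 33.8 CPM with FL, and the groups overlapped (log2 fold change 0.10, SE 0.35). *Rrp12* overlapped there as well, at 21.5, 16.1 and 22.4 CPM with control and 18.0, 21.9 and 26.1 CPM with FL (log2 fold change 0.13, SE 0.31). Neither *Nol6* nor *Rrp12* was called in WT cDC1s without WT control 3, WT FL 2 or WT FL 3, where the adjusted p reached up to 0.209 and 0.258, and *Rrp12* was not called without WT control 1 either. Over both genotypes *Nol6* (log2 fold change 0.83, SE 0.25, adjusted p = 0.0451) lost its call when *Clec9a* gfp/gfp control 2 was left out, or FL 1 of that genotype, with an adjusted p of up to 0.107. *Rrp12* (log2 fold change 0.69, SE 0.22, adjusted p = 0.0552) lost it without *Clec9a* gfp/gfp control 2, WT control 3, WT FL 3 or *Clec9a* gfp/gfp FL 3, with an adjusted p of up to 0.138.

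**Figure D3:**
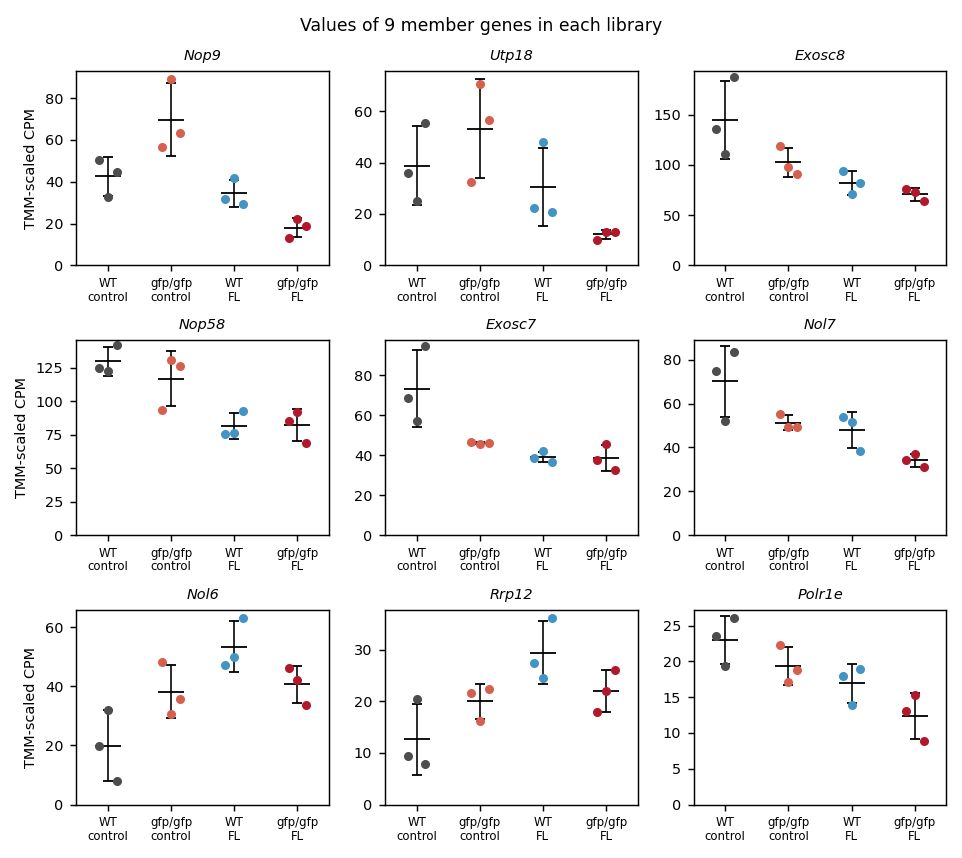
TMM-scaled CPM of 9 member genes in each of the 12 libraries (points) with the group mean and SD (lines), each panel on its own axis from 0. *Nop9* and *Utp18* are lowest in *Clec9a* gfp/gfp FL libraries, the exosome genes *Exosc7* and *Exosc8* are highest in WT control, and *Nol6* and *Rrp12* are lowest in 2 of the 3 WT control libraries.

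Exosome transcripts had a median of −0.37 over both genotypes, with 8 of 9 below 0, against 50.2% of all genes. The summed level of the 9 subunits was 513, 511 and 663 CPM in WT control and 409, 344 and 410 CPM in WT FL libraries. It was 465, 448 and 427 CPM in *Clec9a* gfp/gfp control and 385, 388 and 352 CPM in *Clec9a* gfp/gfp FL libraries. Neither genotype showed overlap between FL and control. With control plasmid, every WT sum was also above every *Clec9a* gfp/gfp sum, whereas with FL the genotypes overlapped. For *Clec9a* gfp/gfp against WT control, the subunits had a median log2 fold change of −0.47. Of the 9, 8 were below 0 and 0 were called, beside 45.8% of all genes below 0 and 0.0267% called. All genes shorter than the median transcript had a median of −0.15 in this comparison. With the relation to transcript length taken out, the subunits ranged from −0.49 (*Exosc5*) to 0.27 (*Exosc10*), and *Exosc9* was also above 0. Over both genotypes 4 subunits fell, beside 7.85% of all genes called lower. They were the ring proteins *Exosc7*, *Exosc8* and *Exosc9* and the RNA-binding cap protein *Exosc3*. The nuclear nuclease *Exosc10* was the only subunit above 0 (log2 fold change 0.03, SE 0.17, adjusted p = 0.929). *Exosc1*, *Exosc2*, *Exosc4* and *Exosc5* did not pass the test, with log2 fold changes of −0.23, −0.37, −0.32 and −0.10.

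*Exosc8* was at 136, 111 and 187 CPM in WT control and at 93.8, 70.5 and 81.6 CPM in WT FL libraries. Among *Clec9a* gfp/gfp libraries it was at 118, 97.9 and 91.2 CPM with control and at 75.7, 72.6 and 63.7 CPM with FL. FL and control did not overlap within either genotype. *Exosc8* fell 1.58-fold over both genotypes (log2 fold change −0.66, SE 0.15, adjusted p = 0.0162) and 1.72-fold in WT cDC1s (adjusted p = 0.0665). The change with *Clec9a* gfp/gfp cells was −0.53 on the log2 scale (adjusted p = 0.223). The bases before its RefSeq start, shown because it was the exosome gene with the smallest p over both genotypes, hold no E-box.
Exosc8, chr3:54735365-54735464, minus strand: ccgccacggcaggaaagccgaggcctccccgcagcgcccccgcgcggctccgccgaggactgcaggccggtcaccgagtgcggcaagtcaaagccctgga

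*Exosc7* was at 68.4, 57.0 and 94.4 CPM in WT control, and at 38.4, 42.0 and 36.7 CPM in WT FL libraries. Its level was 46.5, 45.3 and 46.2 CPM in *Clec9a* gfp/gfp control, between the WT groups, and *Clec9a* gfp/gfp FL was at 37.5, 45.3 and 32.6 CPM. *Exosc7* thus had no overlap in WT cDC1s (log2 fold change −0.86, SE 0.22, adjusted p = 0.0533), and in *Clec9a* gfp/gfp cDC1s the highest FL library was only just below the lowest control library (log2 fold change −0.26, SE 0.22, adjusted p = 0.614). *Exosc3* was at 43.5 to 51.9 CPM in WT control and 25.8 to 32.7 CPM in WT FL libraries (log2 fold change −0.68, adjusted p = 0.0848). *Exosc9* fell over both genotypes (log2 fold change −0.44, adjusted p = 0.0712), but it shares 378 exon bases with *Ccna2*, a cyclin gene on the other strand, which fell as well (log2 fold change −1.74, adjusted p = 0.00123). The part of *Ccna2* reads in the *Exosc9* value was not tested. The call of *Exosc9* was kept when WT control 1, WT control 2, *Clec9a* gfp/gfp control 1 or WT FL 1 was left out and lost when any of the other 8 libraries was, with an adjusted p of up to 0.152.

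Of the snoRNP proteins, *Nop58*, a core protein of the particles that guide ribose methylation, fell. It was at 125, 122 and 142 CPM in WT control and at 75.5, 76.1 and 92.6 CPM in WT FL libraries. The *Clec9a* gfp/gfp libraries were at 93.2, 131 and 126 CPM with control and at 85.3, 91.7 and 68.6 CPM with FL. FL and control did not overlap in either genotype, and *Nop58* fell 1.50-fold over both (log2 fold change −0.58, SE 0.14, adjusted p = 0.0188) and 1.59-fold in WT cDC1s (adjusted p = 0.0812). Its partner *Nop56* (log2 fold change −0.25, SE 0.14) and *Nop10* of the pseudouridine-guiding particles (−0.10, SE 0.22) did not pass the test.

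All 10 factors of large subunit assembly had a negative log2 fold change over both genotypes, as did 50.2% of all genes. The values ran from −0.54 to −0.09 with a median of −0.27. Of the 10, 2 fell, beside 7.85% of all genes called lower. *Nop16* was at 57.1, 47.5 and 71.1 CPM in WT control and 40.5, 34.6 and 36.6 CPM in WT FL libraries, and at 48.3, 52.0 and 45.5 CPM in *Clec9a* gfp/gfp control and 34.3, 38.2 and 33.7 CPM in *Clec9a* gfp/gfp FL libraries. Every FL library was below every control library (log2 fold change −0.54, SE 0.14, adjusted p = 0.0286). *Rrp1* fell as well (log2 fold change −0.40, SE 0.14, adjusted p = 0.0881), a call that was kept without WT control 1, *Clec9a* gfp/gfp control 1 or WT FL 3 and lost without any of the other 9 libraries, with an adjusted p of up to 0.19. Its relative *Rrp1b* was at −0.41 (SE 0.17, adjusted p = 0.142). Values of *Nop2*, a methyltransferase of the large subunit RNA, and of *Rrp8*, another RNA methyltransferase, did not pass the test, with log2 fold changes of −0.09 for each.

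Polymerase I subunits did not move together. *Polr1e*, a subunit particular to polymerase I, was at 23.5, 19.4 and 26.1 CPM in WT control and at 18.0, 13.9 and 18.9 CPM in WT FL libraries. It was at 22.3, 17.1 and 18.8 CPM in *Clec9a* gfp/gfp control and at 13.0, 15.3 and 8.82 CPM in *Clec9a* gfp/gfp FL libraries. FL and control did not overlap in either genotype, and *Polr1e* fell over both (log2 fold change −0.53, SE 0.18, adjusted p = 0.0745), a call kept without WT control 1 or 2, WT FL 1 or 3 or *Clec9a* gfp/gfp FL 2 and lost without any of the other 7 libraries, with an adjusted p of up to 0.187. The largest subunit, *Polr1a*, was at 0.25 on the log2 scale (SE 0.14, adjusted p = 0.259), and *Polr1b*, which forms the active centre with it, was at 0.37 (SE 0.30, adjusted p = 0.455). *Polr1c* and *Polr1d*, which polymerase III shares, were at −0.12 and −0.18 and did not pass the test.

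Within WT cDC1s alone, 4 members fell with FL, *Exosc7*, *Exosc8*, *Nop58* and *Exosc3*, and 2 rose, *Nol6* and *Rrp12*. Of all genes tested, 1.19% were called lower and 5.37% higher. At an unadjusted p under 0.05, 12 members were lower and 5 higher, against 8.25% and 13.7% of all genes. FL and control did not overlap for 14 members that were lower and 4 that were higher in FL, with 10.8% and 12.1% of all genes. The median was −0.31 for the members and −0.01 for all genes. Each of the 6 calls was lost without WT control 3, WT FL 2 or WT FL 3, which left 0 members called. In each of these settings 0% of all genes were called lower. The shares called higher were 0%, 0% and 0.32% in that order, so the loss was not particular to the members. Without WT control 2 there were 10 called lower and 5 higher, when 8.69% and 13.8% of all genes were called. Without WT control 1 there were 1 and 1, against 0.222% and 3.09% of all genes. Without WT FL 1 there were 2 called lower, against 0.817% of all genes. Leaving out FL 1 or FL 2 of the other genotype also gave 2 called lower, against 0.347% and 0.382%. The median stayed below 0 in all 24 alternatives, at −0.16 without WT control 3 and −0.41 without WT control 2.

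Within *Clec9a* gfp/gfp cDC1s alone, 3 members fell with FL, *Nop9*, *Utp18* and *Utp14b*, and 0 rose. Of all genes tested, 3.45% were called lower and 2.01% higher. At an unadjusted p under 0.05 the members numbered 10 lower and 0 higher, against 9.16% and 7.31% of all genes. The groups did not overlap for 15 members that were lower and 1 that was higher in FL (*Nol4l*), with 13.6% and 10.6% of all genes. The median was −0.15 for the members and 0.01 for all genes. Of the members, 0 were called lower in both genotypes, and these comparisons share no library. With sample quality weights 7 members were called lower, as were 8.14% of all genes.

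**Figure D4:**
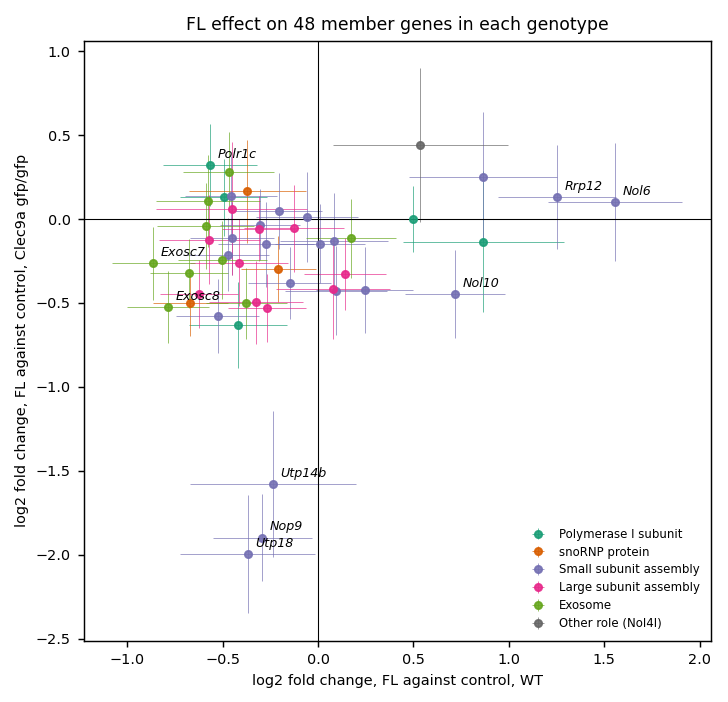
Log2 fold change of FL against control in WT cDC1s (horizontal) and in *Clec9a* gfp/gfp cDC1s (vertical) for the 48 member genes, with standard errors, colored by role. *Nop9*, *Utp18* and *Utp14b* lie between −1.99 and −1.58 on the vertical axis with WT values of −0.37 to −0.23, while *Nol6* and *Rrp12* lie at 1.56 and 1.25 on the horizontal axis with *Clec9a* gfp/gfp values near 0.1.

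Whether the FL effect differed between the genotypes was tested as an interaction, with 0 members called by limma and 0 by limma-voom (limma called 0% of all genes tested). At an unadjusted p under 0.05 there were 6 members with a more negative effect in *Clec9a* gfp/gfp cDC1s and 2 with a more positive effect, against 6.04% and 3.08% of all genes. The difference was −1.61 for *Nop9* (SE 0.37, unadjusted p = 0.000457, adjusted p = 0.321 by limma) and −1.63 for *Utp18* (SE 0.50, adjusted p = 0.443). It was −1.46 for *Nol6* (SE 0.50, adjusted p = 0.455) and −1.12 for *Rrp12* (SE 0.44, adjusted p = 0.489). A difference between genotypes in the FL effect was therefore not shown for any member.

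Loss of DNGR-1 by itself changed no member past the threshold. With control plasmid limma called 0 members and 0.0267% of all genes, and with FL also 0 members and 0.0267% of all genes. By limma-voom the members called were 0 and 0. At an unadjusted p under 0.05, *Clec9a* gfp/gfp against WT control cDC1s gave 6 members higher and 8 lower, against 10.8% and 8.84% of all genes. Under FL it gave 0 higher and 4 lower, against 1.23% and 2.6%. *Nol10*, the counterpart of yeast Enp2 in the processome, had the smallest p with control, at 8.65, 15.2 and 10.2 CPM in WT and 20.8, 17.4 and 26.3 CPM in *Clec9a* gfp/gfp libraries, which did not overlap (log2 fold change 0.88, SE 0.26, adjusted p = 0.188). *Polr1d* came next, at 147, 110 and 195 CPM in WT and 116, 83.5 and 75.6 CPM in *Clec9a* gfp/gfp control libraries, which did overlap (log2 fold change −0.70, SE 0.23, adjusted p = 0.188). Under FL, *Nop9* and *Utp18* had log2 fold changes of −0.91 and −1.18 (adjusted p = 1.00 for each), and neither overlapped between the genotypes. Without WT control 2, 17 members were called between the genotypes with control, as were 20.7% of all genes. Without *Clec9a* gfp/gfp control 1, 1 member was called, as were 1.39% of all genes.

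Between *Clec9a* gfp/gfp FL and WT control cDC1s, where plasmid and genotype differ together, 11 members were called lower and 3 higher, against 9.85% and 12.8% of all genes. This comparison uses the same WT control libraries as the FL effect in WT cDC1s. It also shares both its groups with the FL effect over both genotypes, so the calls of these comparisons overlap by design. *Nol4l* joined *Nol6* and *Rrp12* among the higher (log2 fold change 1.22, SE 0.46, adjusted p = 0.0853). That call was lost with limma-voom (adjusted p = 0.112), the replicate block or length-adjusted values (adjusted p = 0.181), and when WT control 3, *Clec9a* gfp/gfp control 3 or any library of *Clec9a* gfp/gfp FL was left out (adjusted p up to 0.35). *Nol4l* was at 7.37, 3.63 and 1.56 CPM in WT control and at 9.59, 11.3 and 8.58 CPM in *Clec9a* gfp/gfp FL libraries. The members' median was −0.38, and 22 were lower without overlap, against 17.5% of all genes. Without *Clec9a* gfp/gfp FL 3 there were 4 lower and 0 higher, against 1.45% and 2.94% of all genes. Without WT control 3 there were 5 and 0, against 1.44% and 4.2%, and without WT control 2 there were 16 and 7, against 16.1% and 18.5%.

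Transcript length moved with these results. Across the 48 members, Spearman's correlation between transcript length and the FL effect in WT cDC1s was 0.748, and across 11242 genes it was 0.465. For FL in *Clec9a* gfp/gfp cDC1s it was −0.0627 for the members and 0.0311 for all genes. For *Clec9a* gfp/gfp against WT control cDC1s it was 0.774 and 0.495. Points are genes measured in the same libraries and are not independent. The 28 members shorter than the median transcript of 2875 bases had a median FL effect of −0.46 in WT cDC1s, with 26 below 0. All short genes had a median of −0.22, with 3881 of 5621 below 0. The 20 longer members had a median of 0.08, against 0.24 for all long genes. The exosome genes that fell in WT cDC1s have transcripts of 1053 to 1300 bases, and *Nol6* and *Rrp12*, which rose, have 4599 and 4340 bases. *Nop9* and *Utp18* have 3694 and 2613 bases.

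When the relation to length was taken out of each library by a smooth curve over all genes, the members' median was −0.25 in WT, −0.15 in *Clec9a* gfp/gfp and −0.19 over both genotypes. No member was then called in WT cDC1s, where 0.124% of all genes were called lower and 0.533% higher. Over both genotypes, *Exosc8* (log2 fold change −0.53, adjusted p = 0.0149), *Nop58* (−0.47, adjusted p = 0.0343), *Exosc7* (−0.44, adjusted p = 0.0399), *Nop16* (−0.43, adjusted p = 0.0388), *Nol7* (−0.45, adjusted p = 0.0462), *Nop9* and *Utp18* were still called lower by limma, as were *Utp14b* (−1.13, adjusted p = 0.0365), *Polr1e* (−0.55, adjusted p = 0.0713) and *Exosc3* (−0.38, adjusted p = 0.0861). *Rrp1b* was called in addition (−0.58, adjusted p = 0.0495), and the calls of *Exosc9* (adjusted p = 0.134) and *Rrp1* (adjusted p = 0.16) were lost, which made 11 members called lower, against 8.54% of all genes. *Nol6* (0.67, adjusted p = 0.0709) and *Rrp12* (0.55, adjusted p = 0.0945) were still higher. What set the relation to length was not tested.

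**Figure D5:**
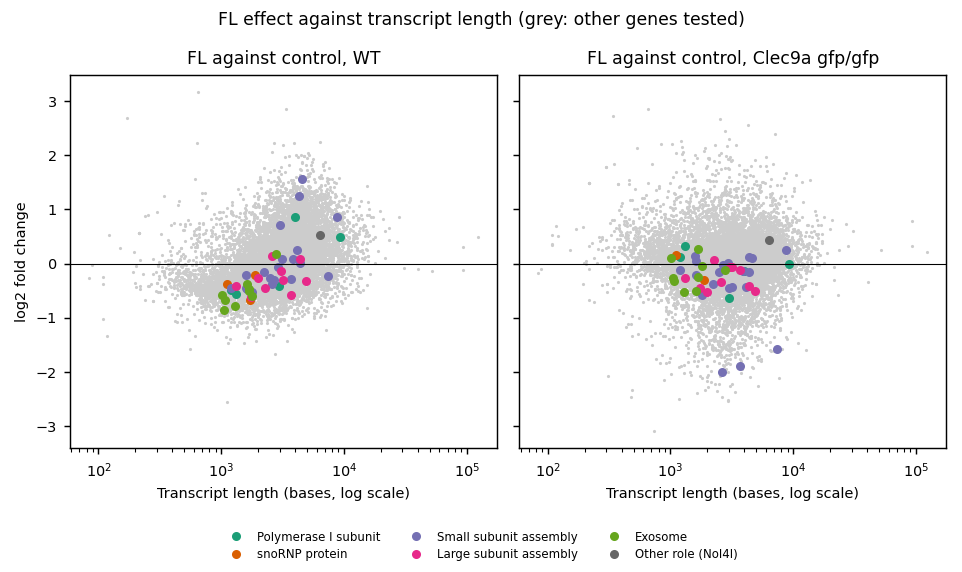
Log2 fold change of FL against control (vertical) against transcript length in bases on a log axis (horizontal) in WT (left) and *Clec9a* gfp/gfp cDC1s (right), with members colored by role and all other genes in grey. On the left short members lie mostly below 0 and long ones above (Spearman's correlation 0.748 over the members), and on the right there is no such slope (−0.0627).

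Of the other genes of the same pathway, 120 were measured of a list of 124. Over both genotypes 16 fell and 3 rose, with a median of −0.21 and 87 below 0, beside 7.85% and 9.6% of all genes called and 50.2% below 0. In WT cDC1s 1 fell and 4 rose (median −0.15). In *Clec9a* gfp/gfp cDC1s 4 fell and 0 rose (median −0.21), with 99 of 120 below 0, beside 49.1% of all genes. The shares that fell within each genotype were no higher than the 1.19% and 3.45% of all genes called lower there. *Imp3*, which binds the U3 particle, fell over both genotypes (log2 fold change −1.53, adjusted p = 0.016), as did the pseudouridine synthase *Dkc1* (−0.59, adjusted p = 0.0284) and its partner *Gar1* (−0.70, adjusted p = 0.0425). The exosome nuclease *Dis3* fell (−1.03, adjusted p = 0.0366), as did *Ddx51*, an RNA helicase of the large subunit pathway (−0.64, adjusted p = 0.0676). *Nmd3*, the export adaptor of the large subunit (−0.40, adjusted p = 0.0705), and nucleophosmin, *Npm1* (−0.37, adjusted p = 0.0803), also fell.

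The polymerase I subunits *Twistnb* (log2 fold change −0.54, adjusted p = 0.0778) and *Znrd1* (−0.46, adjusted p = 0.0994), which the name rule does not take in, fell over both genotypes. *Heatr1*, the counterpart of yeast Utp10, rose over both genotypes (0.78, adjusted p = 0.0278) and in WT cDC1s (1.25, adjusted p = 0.0473), and *Skiv2l*, a helicase that feeds the cytoplasmic exosome, rose as well (0.87, adjusted p = 0.0309). *Mybbp1a*, a nucleolar protein that binds Myb, rose in WT cDC1s (0.97, adjusted p = 0.0842) and not over both genotypes (0.39, adjusted p = 0.23). With FL in *Clec9a* gfp/gfp cDC1s, *Imp3* (−1.83, adjusted p = 0.0587), *Dis3* (−1.79, adjusted p = 0.0298), *Ddx51* (−1.42, adjusted p = 0.0221) and *Gar1* (−1.05, adjusted p = 0.065) were the genes of this list that fell beside the members *Nop9*, *Utp18* and *Utp14b*.

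Genes of cell division fell with FL in the same libraries. Of a list of 24 proliferation genes, 17 were called lower over both genotypes, 14 in *Clec9a* gfp/gfp and 5 in WT cDC1s. Of all genes, 7.85%, 3.45% and 1.19% were called lower there. The medians of the proliferation genes were −0.54, −0.84 and −0.36. Their summed level was 3018 to 3782 CPM in WT control and 2421 to 3312 CPM in WT FL, and 3461 to 4518 CPM in *Clec9a* gfp/gfp control and 1738 to 2704 CPM in *Clec9a* gfp/gfp FL libraries. The part of cell division in the levels of the nucleolar genes was not tested. Of 9 Myc family genes measured, *Mxd1*, which competes with Myc for Max, rose over both genotypes (log2 fold change 1.28, adjusted p = 0.0103), and *Mxd3*, another of that kind, fell (−0.65, adjusted p = 0.0527). In *Clec9a* gfp/gfp cDC1s *Mxd1* (1.18, adjusted p = 0.0962) and *Mxi1* (1.03, adjusted p = 0.0586) rose, and *Mxd1* did in WT cDC1s (1.38, adjusted p = 0.0625). *Myc* did not pass the test over both genotypes (log2 fold change −0.20, adjusted p = 0.633), nor did *Mycl*, its relative in dendritic cells (−0.07, adjusted p = 0.787).

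Macrophage and monocyte markers also differed between the groups. Of the 12 measured, 4 rose in *Clec9a* gfp/gfp cDC1s with FL and 0 in WT cDC1s, against 2.01% and 5.37% of all genes. The median log2 fold changes of these markers were 1.01 and 0.29. Their sum was 452 to 529 CPM in *Clec9a* gfp/gfp control and 738 to 1397 CPM in *Clec9a* gfp/gfp FL libraries, and 607 to 1166 CPM in WT control and 609 to 834 CPM in WT FL libraries. Melanoma markers (6 of 7 measured) summed to 16.1 to 112 CPM, and the T cell marker measured of 6 reached at most 3.16 CPM. Fibroblast and endothelial markers (4 of 7 measured) summed to 7.68 to 12.6 CPM in WT control and 18.9 to 22.0 CPM in WT FL, and to 7.13 to 41.5 CPM in *Clec9a* gfp/gfp control and 15.2 to 54.2 CPM in *Clec9a* gfp/gfp FL libraries, and 1 of the 4 rose over both genotypes (median 0.76). Their part in the levels of the nucleolar genes was not tested.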

How the data were processed

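Tumor cDC1s were sequenced in 12 libraries (single end, 61 bases, no strand mark). According to the submitters' notes and the methods, CASAVA 1.8.2 split the reads by library, cutadapt 1.3 trimmed them and dropped those under 30 bases, and RSEM 1.2.3 quantified them on the GRCm38 transcriptome. The authors deposited signal values, that is counts normalized by TMM and expressed per M of the effective library, after a filter on low genes whose rule is not given in the sources used here. Each value equaled a whole count plus 0.5 over a factor of its library, within a tolerance of 0.02 counts. A value of 1 CPM stood on 14.4 to 25.9 counts, except for 3.06 in *Clec9a* gfp/gfp control 3.

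Values were taken to log2(value + 1), and the 11255 genes with a mean of at least 1 were fitted with limma 3.58.1 in R 4.3.3 (1 mean per group, moderated variances with a trend). Fold changes are on that scale, which understates those of low genes. P values were adjusted by Benjamini-Hochberg within each of 7 comparisons and called under 0.1, the threshold of the study. Pools of mice were the replicates. Genes given in every library were those with the smallest p by comparison and by name family, others being chosen after their values were seen. Members, roles and lists were chosen with earlier results of these data known. Lengths and positions came from GENCODE M21. The fitting steps were run on simulated counts with a fixed spread. These held no outlying library and no relation to length, so they do not bear on those features. Alternatives covered pseudocount, filter, scaling, weights, a replicate block, the groups fitted and each library left out, and 3 were added after seeing the data (limma-voom on whole counts, length-adjusted values, and WT control 1 and 3 left out together).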

Additional observations from a re-analysis of the deposited data

Results flagged for a closer look

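For 2 members, each in a different pair of comparisons, the groups differed in opposite directions without overlap in either comparison. *Nol10*, a processome factor, was higher with FL in WT cDC1s (log2 fold change 0.72) and lower with FL in *Clec9a* gfp/gfp cDC1s (−0.45), with no overlap of libraries in either genotype. The difference was −1.17 (SE 0.37, adjusted p = 0.455 by limma) and did not pass the test. *Nop9* lay above WT in *Clec9a* gfp/gfp cDC1s with control (log2 fold change 0.69) and below it with FL (−0.91), again without overlap. That difference was −1.61 (SE 0.37, adjusted p = 0.321) and did not pass the test either. Such opposite differences occurred in 60 genes (0.533% of those tested) for FL between the genotypes and in 99 genes (0.88%) for genotype between the plasmids.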

How the results depend on the processing

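Of 1040 values of named genes under the alternatives, 867 kept their direction and side of the threshold, 170 lost their call, 3 gained one and 0 reversed. In WT cDC1s the 2 members called higher with FL became 0 with length-adjusted values, without WT control 1 and 3, and with only the groups compared. The 4 called lower became 0 in these same settings and 2 with column totals or sample quality weights. The 3 called lower in *Clec9a* gfp/gfp cDC1s became 7 with sample quality weights, which called 8.14% of all genes lower. Over both genotypes, 2 higher and 12 lower became 0 and 1 without WT control 1 and 3, when 1.63% and 0.524% of all genes were called. Between *Clec9a* gfp/gfp FL and WT control cDC1s, 3 higher became 1 with length-adjusted values, and 3 higher and 11 lower became 0 and 0 without WT control 1 and 3. For FL in WT cDC1s, 0.533% of all genes were called higher and 0.124% lower with length-adjusted values. With only the groups compared, the shares were 0.874% and 0%, and without WT control 1 and 3 they were 0.00889% and 0%. The share of all genes called lower was 0.329% with column totals and 0.347% with sample quality weights. What caused these shifts was not tested. With 1 library left out in turn, the counts ranged from 0 to 5 higher and 0 to 10 lower for FL in WT, from 0 to 0 higher and 2 to 3 lower in *Clec9a* gfp/gfp, and from 0 to 3 higher and 8 to 13 lower over both. They ranged from 0 to 17 between the genotypes with control, when 0.0267% to 20.7% of all genes were called. With FL and for the interaction they ranged from 0 to 0. Between *Clec9a* gfp/gfp FL and WT control they ranged from 0 to 7 higher and 4 to 16 lower. The shares of all genes at these ends are given with that comparison above. Over the same settings, 0% to 8.69% of all genes were called lower with FL in WT. The share ranged from 0.756% to 4.54% in *Clec9a* gfp/gfp and from 3.73% to 11.2% over both. Shares called higher ranged from 0% to 13.8%, 0.187% to 2.67% and 5.12% to 13.9%. Changes in calls were thus not particular to the members. No more than 3.06 M counts stood behind *Clec9a* gfp/gfp control 3, where low genes such as *Utp14b* are least certain.

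The paper reports independent experiments, but whether the replicate numbers mark them is not stated. Deviations of same-numbered libraries correlated from −0.217 to 0.339, with 5 of 18 above 0.1. Those of libraries with other numbers correlated from −0.3 to 0.447, with 7 of 36 above 0.1. In 14 of 36 comparisons of a library with another group, its best match was the library of its own number. Both ranges spread across 0, so they do not settle whether the numbers pair the libraries. With the replicate block, 2 members were called higher and 3 lower for FL in WT, 0 and 3 in *Clec9a* gfp/gfp, and 2 and 12 over both genotypes. The shares of all genes were 5.23% and 0.853%, 2.11% and 3.5%, and 9.6% and 7.22%. The block gave 0 between genotypes with control and with FL, against 0.0355% and 0.0267% of all genes, and 0 for the interaction. Between *Clec9a* gfp/gfp FL and WT control it gave 11 lower and 2 higher, with 12.7% of all genes called higher.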
